A study of Mus musculus with 12 samples.

Results

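The genes described here are 41 genes of skeletal muscle, read in RNA prepared from mouse liver. They were taken by gene symbol from a fixed list, out of 19938 genes named on the array, and each gene was represented by the probe set (called probe here) with the highest mean over the 12 arrays. The list holds the motor and regulatory proteins of the contractile filaments, the anchoring proteins of the Z-disc, the calcium store of the muscle fibre and its energy supply. All 41 symbols were found, on 61 probes: 38 genes had a single probe, Fabp3 and Jph1 had 2 each and Trdn had 19.

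The 12 arrays measured liver RNA of male C57BL/6J mice in 4 groups of 3. mTERT KO are first-generation (G1) knock-outs of the gene for the telomerase reverse transcriptase, and mTR KO are G1 knock-outs of the gene for the telomerase RNA template. mTERT WT and mTR WT are the wild-type (WT) mice of each line, and each numbered set of a line holds a WT and a KO littermate. No treatment was given, ages were matched but are not given in the sources used here, and G1 knock-outs are the generation in which telomere loss has had the least time to build up. The comparison the study was built for is KO against WT in each line.

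Values are log2 intensities as deposited. The background level of an array was set at the 95th percentile of its 1027 olfactory receptor genes, a family silent in liver, and it lay between 4.21 and 4.49. Array medians lay between 4.37 and 4.43, and the number of arrays limits the precision. The tissue label was checked on 8 hepatocyte genes, such as Alb, Apoa1 and Serpina1c, which encode proteins that liver secretes into blood: their mean level was 12.95 on mTERT WT 1, 12.93 on mTERT WT 3 and between 12.80 and 12.98 on the remaining 10, and all 8 were above background on every array. mTERT WT 1 and mTERT WT 3 stood apart from the rest for the muscle genes, so results that rest on them are given with and without them.

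A skeletal muscle fibre contracts when thick filaments of myosin pull on thin filaments of actin. Calcium released from the sarcoplasmic reticulum binds troponin on the thin filament and frees the sites where myosin attaches, and a pump then returns the calcium to its store. Fast-twitch and slow-twitch fibres use different genes for the myosin heavy chains, the troponin subunits and the calcium pump, so that these genes tell the fibre types apart. Creatine kinase, glycogen phosphorylase and myoglobin supply the fibre with energy and oxygen. Hepatocytes make little of most of these proteins, while some members, such as Eno3, Eef1a2, Jph1 and Des, are known from other cells too.

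The proximal promoters of 3 members are shown because these genes moved together on the same arrays and because the letters known for muscle promoters differ among them. Sequences are RefSeq's for GRCm38.p6, 250 bases before to 50 after the gene start, and 32 of the 41 members had one. Capitals mark matches on either strand to the TATA letters TATAAA, to the MEF2 site and to the CArG box, the letters read by serum response factor.
Acta1 (skeletal actin), chr8:123894726-123895025, minus strand: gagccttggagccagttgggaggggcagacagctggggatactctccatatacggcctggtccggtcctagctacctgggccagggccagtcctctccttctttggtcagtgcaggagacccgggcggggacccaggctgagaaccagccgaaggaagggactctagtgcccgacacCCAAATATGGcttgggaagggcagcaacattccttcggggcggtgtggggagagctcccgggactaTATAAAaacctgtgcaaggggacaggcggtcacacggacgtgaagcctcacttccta
Myh4 (fast myosin heavy chain IIb), chr11:67237562-67237861, plus strand: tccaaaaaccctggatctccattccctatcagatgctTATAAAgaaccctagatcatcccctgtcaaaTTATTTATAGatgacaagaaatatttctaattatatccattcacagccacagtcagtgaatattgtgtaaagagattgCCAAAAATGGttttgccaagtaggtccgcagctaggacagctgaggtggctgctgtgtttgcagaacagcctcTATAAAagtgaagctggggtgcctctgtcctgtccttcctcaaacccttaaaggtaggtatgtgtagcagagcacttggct
Myh2 (fast myosin heavy chain IIa), chr11:67170777-67171076, plus strand: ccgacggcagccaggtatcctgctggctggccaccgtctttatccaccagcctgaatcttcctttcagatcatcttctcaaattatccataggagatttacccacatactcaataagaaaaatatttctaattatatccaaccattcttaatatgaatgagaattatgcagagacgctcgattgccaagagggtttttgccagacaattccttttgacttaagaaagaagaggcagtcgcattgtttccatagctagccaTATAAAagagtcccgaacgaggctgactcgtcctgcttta

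The Acta1 window holds 1 CArG match and 1 TATAAA match. The Myh4 window holds a CArG match, a MEF2 match and 3 TATAAA matches, and 1 of the TATAAA matches lies on the other strand within the MEF2 match. The Myh2 window holds 1 TATAAA match and neither of the others. Over the 32 member promoters a MEF2 match was found in 5 (Xirp2, Ttn, Myh1, Myh4 and Pvalb), or 15.6%, against 3.26% of all 27025 promoters of this length. A CArG match was found in 3 (Acta1, Myh4 and Ldb3), or 9.38%, against 1.57%. TATAAA was found in 6 of 32 (18.8%) against 14.2%, and the E-box CANNTG, read by the myogenic factors among others, in 25 of 32 (78.1%) against 72.1%. These counts describe letters in a window and do not show binding.

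Most of the muscle genes were low on 10 arrays and stood well above them on mTERT WT 1 and mTERT WT 3. In what follows the excess of a gene on an array is its log2 value there minus its own median over the 12 arrays, so that 1 unit is 2-fold. On mTERT WT 1, 27 of 41 members had an excess of at least 1, where 0.757% of all genes did. On mTERT WT 3, 27 of 41 did, where 0.547% of all genes did, and 24 members did so on both. On the other 10 arrays the count was 2 on mTERT KO 1 (Acta1 and Atp2a1, against 0.517% of genes), 1 on mTR KO 3 (Acta1, 0.0351%), 1 on mTR WT 1 (Acta1, 0.231%) and 0 on each of the remaining 7. Those 10 arrays together hold 410 readings of members, 4 of them with such an excess, against 0.18% of the readings of all genes. The members were proposed with this pattern known, so these counts describe it and do not test it.

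**Figure D1:**
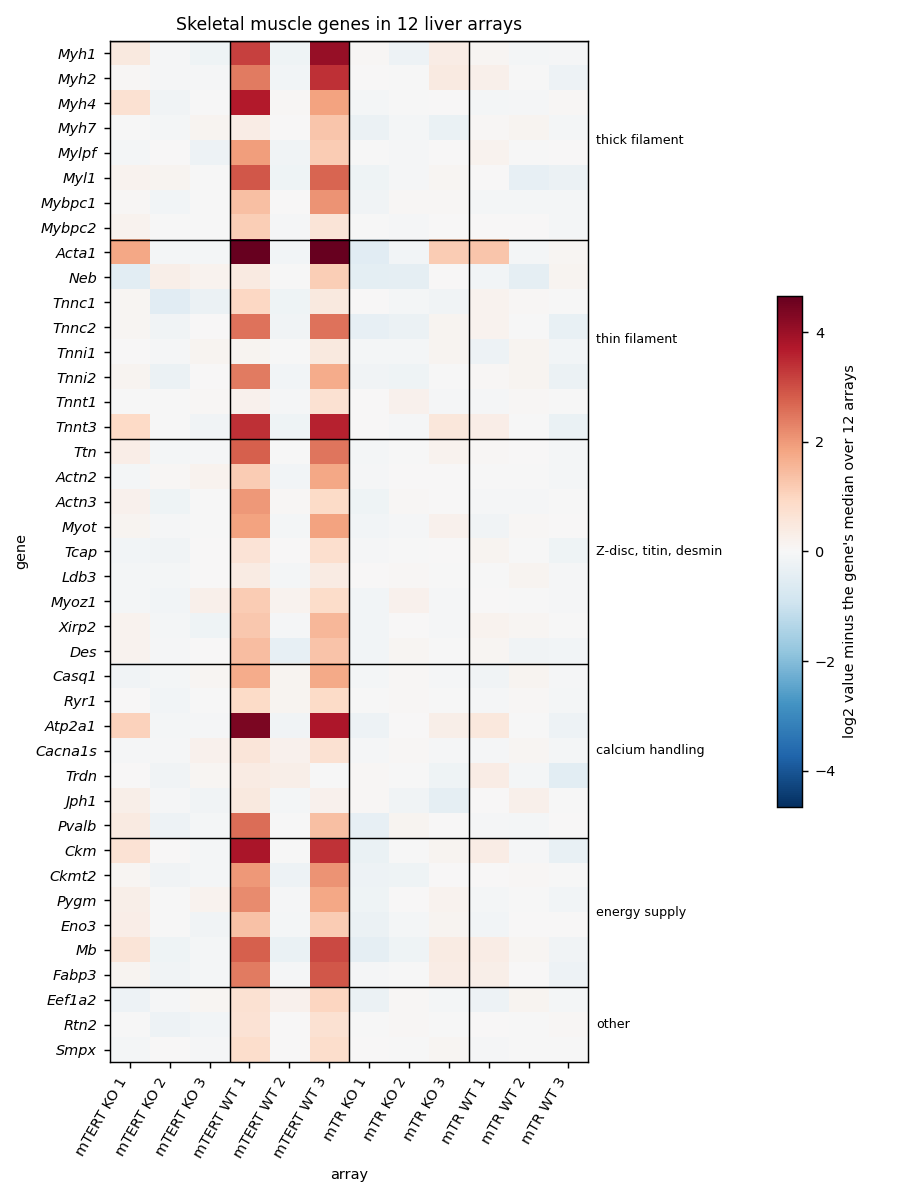
Excess of each of the 41 muscle genes (rows, grouped by role) on each of the 12 arrays (columns), in log2 units over the gene's median of 12 arrays. The columns of mTERT WT 1 and mTERT WT 3 are red for nearly every gene, up to an excess of 4.66 for Acta1 on mTERT WT 1, while mTERT WT 2 is pale throughout.

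The highest of the 12 values was on mTERT WT 1 for 19 members and on mTERT WT 3 for 22, and on no other array for any member. For 37 of 41 members both of these arrays lay above all 10 others, which held for 1.69% of all genes. The 4 exceptions were Tnni1, Tnnt1, Trdn and Jph1. Above the background level were 34 members on mTERT WT 1 (49.8% of all genes), 37 on mTERT WT 3 (54.6%) and 6 to 14 on each of the other 10 arrays, or 99 of 410 readings (53.7% for all genes). Tnni1, Tcap and Ldb3 were never above background, and Neb, Trdn, Eno3 and Eef1a2 were above it on all 12 arrays. In bulk tissue RNA, more cells of a type and more RNA per cell cannot be told apart.

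The thick filament genes encode myosin and the proteins bound to it, and their median excess was 2.18 on mTERT WT 1 and 1.98 on mTERT WT 3. Myh4, the heavy chain of the fastest fibres (IIb), read 7.36, 3.73 and 5.54 on the mTERT WT arrays, 4.40, 3.50 and 3.67 on the mTERT KO arrays, 3.57, 3.60 and 3.73 on the mTR WT arrays and 3.60, 3.66 and 3.68 on the mTR KO arrays, each in the order of sets 1 to 3. It was above background on mTERT WT 1, mTERT WT 3 and, by a small margin, mTERT KO 1. Myh2, the IIa heavy chain, read 6.26, 3.73 and 7.25 on the mTERT WT arrays, 3.90, 3.80 and 3.81 on the mTERT KO arrays, 4.07, 3.85 and 3.61 on the mTR WT arrays and 3.85, 3.83 and 4.26 on the mTR KO arrays. Myh1, the IIx heavy chain, read 6.79, 3.39 and 7.65 on the mTERT WT arrays, 4.04, 3.54 and 3.37 on the mTERT KO arrays, 3.69, 3.50 and 3.53 on the mTR WT arrays and 3.63, 3.35 and 3.93 on the mTR KO arrays. So Myh4 was higher on mTERT WT 1 than on mTERT WT 3, and Myh1 and Myh2 were higher on mTERT WT 3. For all 3 heavy chains mTERT WT 2 was within the range of the KO and mTR arrays or below it.

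Myh7, the heavy chain of slow fibres, was at 4.18, 3.84 and 5.11 on the mTERT WT arrays, 3.83, 3.73 and 3.96 on the mTERT KO arrays, 3.88, 3.95 and 3.74 on the mTR WT arrays and 3.58, 3.75 and 3.52 on the mTR KO arrays. It was above background on mTERT WT 3 alone. The light chains Mylpf, the regulatory light chain of fast fibres, and Myl1, the essential one, read 5.64 and 6.35 on mTERT WT 1 and 4.88 and 6.17 on mTERT WT 3. Their other 10 arrays lay at 3.46 to 3.87 for Mylpf and 3.10 to 3.64 for Myl1. Myosin-binding protein C, which tunes the attachment of myosin, has a slow form, Mybpc1, and a fast form, Mybpc2. Mybpc1 read 5.36 on mTERT WT 1 and 6.04 on mTERT WT 3 against 3.77 to 4.0004 elsewhere, and Mybpc2 4.77 and 4.22 against 3.56 to 3.79. Both forms were above the other 10 arrays on this pair, and for each the 2 high arrays differed by less than the 95th percentile of all genes (0.704).

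The thin filament genes had a median excess of 1.69 on mTERT WT 1 and 1.45 on mTERT WT 3. Acta1, skeletal actin, had the widest span of all members, with 9.37, 4.57 and 9.33 on the mTERT WT arrays, 6.50, 4.62 and 4.61 on the mTERT KO arrays, 5.99, 4.63 and 4.79 on the mTR WT arrays and 4.17, 4.59 and 5.91 on the mTR KO arrays. Beyond the pair of high WT arrays it had an excess of at least 1 on mTERT KO 1, mTR KO 3 and mTR WT 1, and it was above background on every array but mTR KO 1. Neb, the giant ruler protein nebulin, differed less between arrays, at 6.64 on mTERT WT 1 and 7.39 on mTERT WT 3 against 5.75 to 6.50 elsewhere.

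Troponin has a calcium-binding, an inhibitory and a tropomyosin-binding subunit, each in a fast and a slow form. The fast forms all stood out. Tnnt3, the fast tropomyosin-binding form, read 7.88, 4.28 and 8.05 on the mTERT WT arrays, 5.41, 4.46 and 4.30 on the mTERT KO arrays, 4.80, 4.45 and 4.15 on the mTR WT arrays and 4.49, 4.42 and 4.99 on the mTR KO arrays. Tnnc2, the fast calcium-binding form, was at 6.62 on both high arrays against 3.70 to 4.28 elsewhere. Tnni2, the fast inhibitory form, was at 6.88 on mTERT WT 1 and 6.21 on mTERT WT 3 against 4.19 to 4.59.

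The slow forms were close to the other arrays. Tnnc1, which serves slow fibres and heart, was at 5.39 and 4.88 against 3.90 to 4.59 elsewhere. Tnnt1 was at 4.45 and 4.96 against 4.20 to 4.46, so that mTERT WT 1 lay within the range of the rest. Tnni1 was at 3.88 and 4.20 against 3.54 to 3.89, all below background.

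Z-disc, titin and desmin genes had a median excess of 1.26 on mTERT WT 1 and 1.31 on mTERT WT 3. Ttn, the spring protein titin, was at 6.58 and 6.27 against 3.70 to 4.11 on the other arrays. Actn3, the alpha-actinin of fast fibres, was at 5.89 and 4.78 against 3.68 to 4.09, and Actn2, the form found in all fibres, at 5.04 and 5.65 against 3.71 to 4.004.

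Myot, which encodes the actin-bundling protein myotilin, read 5.63 and 5.61 against 3.57 to 3.95, and Des, the intermediate filament desmin, 5.63 and 5.52 against 3.81 to 4.35. Xirp2, an actin-binding protein of the fibre's junctions, read 4.83 and 5.11 against 3.39 to 3.73, and Myoz1, a fast-fibre Z-disc protein, 4.97 and 4.63 against 3.65 to 4.01. All 4 were above background on these arrays alone. Tcap, the titin cap, and Ldb3, a scaffold of the Z-disc, were highest on the same arrays but below background there, at 4.14 and 4.26 for Tcap and 4.15 and 4.16 for Ldb3.

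Among the calcium genes the median excess was 0.89 on mTERT WT 1 and 0.90 on mTERT WT 3, and the members were spread widely around it. Atp2a1, the calcium pump of fast fibres, read 8.32, 3.77 and 7.69 on the mTERT WT arrays, 4.998, 3.82 and 3.86 on the mTERT KO arrays, 4.42, 3.91 and 3.68 on the mTR WT arrays and 3.69, 3.94 and 4.21 on the mTR KO arrays. Pvalb, parvalbumin, a soluble calcium buffer of fast fibres, was at 6.48 and 5.31 on mTERT WT 1 and 3 against 3.52 to 4.30 elsewhere. Casq1, calsequestrin, which holds calcium inside the store, was at 5.63 and 5.66 against 3.73 to 4.03.

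The release machinery differed less from the other arrays. Ryr1, the release channel, read 4.69, 3.92 and 4.70 on the mTERT WT arrays, 3.81, 3.69 and 3.80 on the mTERT KO arrays, 3.74, 3.86 and 3.71 on the mTR WT arrays and 3.80, 3.86 and 3.79 on the mTR KO arrays. Cacna1s, the voltage sensor, was at 4.37 and 4.54 against 3.73 to 4.04. The scaffold genes Trdn (triadin) and Jph1 (junctophilin) did not set these arrays apart: Trdn was at 5.53 on mTERT WT 1 and 5.16 on mTERT WT 3 against 4.69 to 5.51, and Jph1 at 5.05 and 4.81 against 4.16 to 4.85.

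For Trdn the choice of probe matters. The probe used has the highest mean of 19, and 17 of the 19 had their highest value on mTERT WT 1 or mTERT WT 3, with both above all other arrays for 9. Both probes of Fabp3 had both arrays above all others, and neither probe of Jph1 did.

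The energy genes had the highest median excess of the 6 roles, 2.31 on mTERT WT 1 and 2.50 on mTERT WT 3, and all 6 had an excess of at least 1 on both. Ckm, the muscle creatine kinase that rebuilds ATP from creatine phosphate, read 8.03, 4.20 and 7.61 on the mTERT WT arrays, 4.90, 4.24 and 4.15 on the mTERT KO arrays, 4.57, 4.17 and 3.87 on the mTR WT arrays and 3.94, 4.22 and 4.37 on the mTR KO arrays. Its mitochondrial partner Ckmt2 was at 5.76 and 5.83 on mTERT WT 1 and 3 against 3.50 to 3.84 elsewhere. Mb, the oxygen store myoglobin, read 6.98, 3.88 and 7.24 on the mTERT WT arrays, 4.79, 3.99 and 4.09 on the mTERT KO arrays, 4.51, 4.28 and 4.03 on the mTR WT arrays and 3.76, 3.97 and 4.58 on the mTR KO arrays. For Ckm mTERT WT 2 lay within the range of the mTERT KO arrays, and for Ckmt2 and Mb it lay below that range.

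Fabp3, the fatty acid binding protein of muscle and heart, was at 6.31 and 6.79 against 3.64 to 4.24. Pygm, muscle glycogen phosphorylase, was at 6.66 and 6.26 against 4.28 to 4.75, and Eno3, the muscle enolase, at 6.21 and 6.03 against 4.57 to 5.13. Of the 3 remaining members, Eef1a2, a translation elongation factor of muscle and nerve, was at 6.17 and 6.45 against 5.18 to 5.63. Rtn2, a reticulon, was at 4.64 and 4.69 against 3.76 to 4.03, and Smpx, a small protein of striated muscle, at 4.45 and 4.47 against 3.53 to 3.72.

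**Figure D2:**
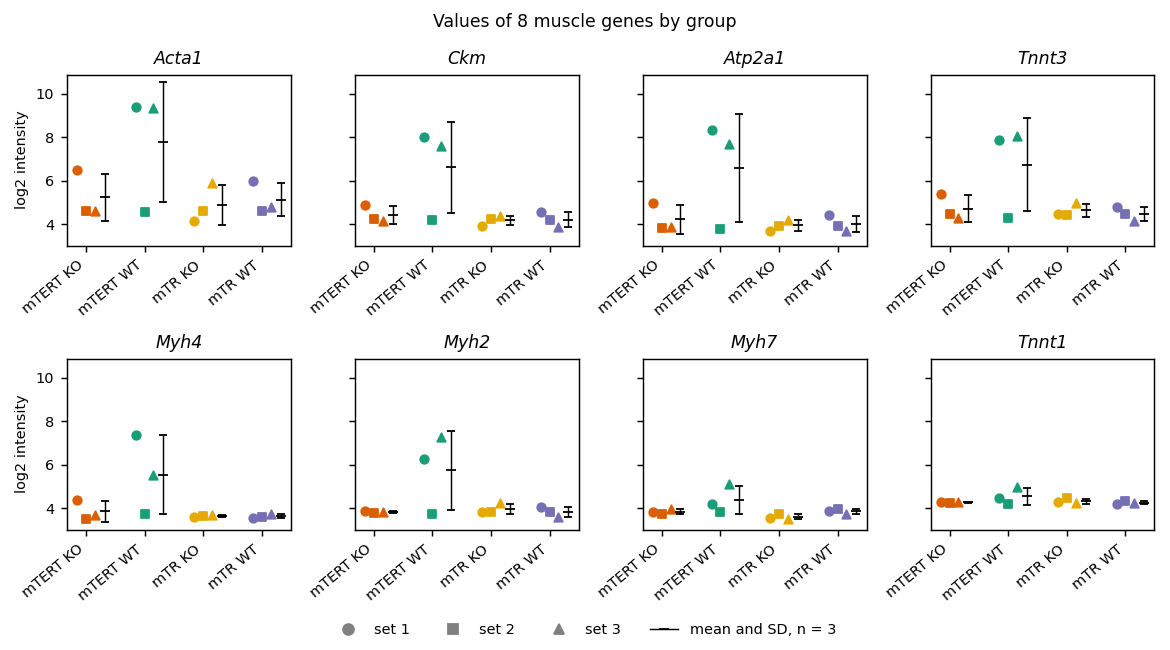
Log2 intensity of 8 muscle genes in the 4 groups; each symbol is an array, its shape gives the set, and the black mark and bar are the mean and SD of 3 arrays. In the mTERT WT group sets 1 and 3 lie far above set 2 for Acta1, Ckm, Atp2a1, Tnnt3, Myh4 and Myh2, which makes the SD of that group wide (Acta1 7.76 ± 2.76), while Myh7 (4.38 ± 0.657) and Tnnt1 (4.54 ± 0.381) are highest in set 3 and have a narrower SD there.

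The lists of fast-fibre and slow-fibre genes differed in how far they stood out on these arrays. The 14 fast-fibre members had a median excess of 2.47 on mTERT WT 1 (range 1.14 to 4.39) and 1.81 on mTERT WT 3 (range 0.59 to 4.07), and 14 and 11 of them had an excess of at least 1. The 4 slow-fibre members had a median of 0.26 (range 0.13 to 0.97) and 0.58 (range 0.45 to 1.27), with 0 and 1 at 1 or more. Mybpc1, the slow form of myosin-binding protein C, is in neither list, and its excess was 1.41 and 2.09. Over the other 10 arrays the medians lay between −0.13 and 0.16 for the fast-fibre and between −0.11 and 0.09 for the slow-fibre members. A probe near background shows a smaller excess than the change in its transcript, and the lists differed in this. On mTERT WT 1, 14 of 14 fast-fibre and 1 of 4 slow-fibre members were above background. On mTERT WT 3 it was 13 of 14 and 3 of 4. The level itself differed, at 4.48 on mTERT WT 1 and 4.30 on mTERT WT 3, and Tnnt1 on mTERT WT 1 (4.45) lay between them. Myh2, Mylpf and Pvalb were above background on mTERT WT 1 and mTERT WT 3 alone, and Tnni1 on no array. The part of the floor in the difference between the lists was not tested.

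The arrays mTERT WT 1 and mTERT WT 3 also differed from each other by gene. Over all 41 members the difference mTERT WT 1 minus mTERT WT 3 had a median of −0.0075, with 19 above and 22 below 0. The fast-fibre members had a median of 0.44, with 9 of 14 above 0, and the slow-fibre members a median of −0.42, with 3 of 4 below 0. Over all genes the median was −0.0082, and the size of the difference was 0.704 at its 95th percentile. Both arrays are single animals, so there is no test of this difference.

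Members on the side of mTERT WT 1 by more than that percentile were Myh4 (1.82), Pvalb (1.17), Actn3 (1.11) and Mylpf (0.76), all fast-fibre genes and Myh4 that of the IIb type. On the side of mTERT WT 3 by as much were Myh2 (−0.99), Myh7 (−0.94), Myh1 (−0.87) and Neb (−0.75). Myh2 and Myh1 are counted as fast-fibre genes, but they belong to the IIa and IIx types, and Myh7 is the slow one. The slow-fibre gene Tnnc1 went the other way, at 0.50. The 2 troponin genes of the slow thin filament, Tnnt1 (−0.51) and Tnni1 (−0.32), were on the side of mTERT WT 3 within the spread of all genes.

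**Figure D3:**
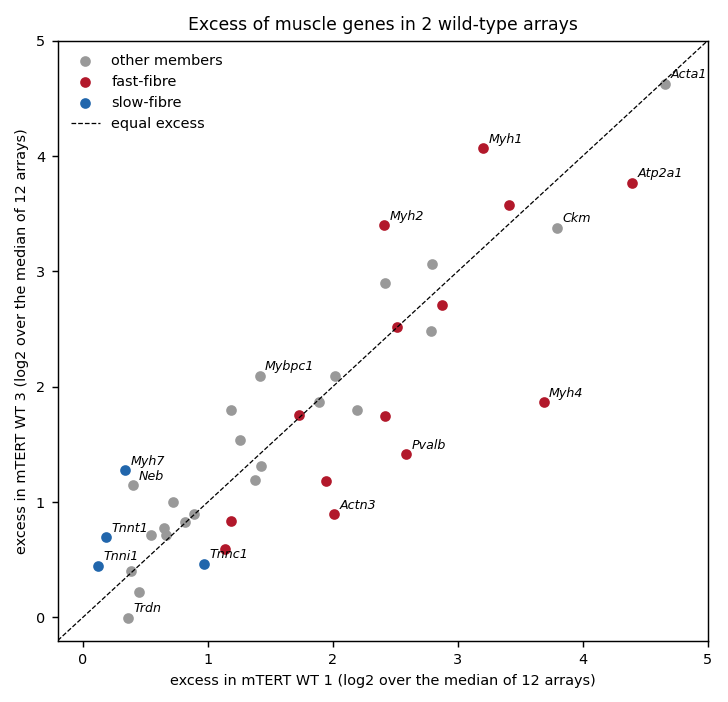
Excess of each muscle gene on mTERT WT 1 (horizontal) and mTERT WT 3 (vertical), in log2 units over the median of 12 arrays; red points are fast-fibre, blue slow-fibre and grey other members, and the dashed line marks an equal excess. Most points lie along the line, with Myh4, Pvalb and Actn3 below it and Myh1, Myh2 and Myh7 above it.

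By position, Myh2, Myh1 and Myh4 lie in a row on chromosome 11 between Myh3 and Myh8, the embryonic and perinatal heavy chains, which were picked here for that position. Myh3 read 3.74 and 3.66 on mTERT WT 1 and 3 against 3.27 to 3.64 on the other arrays, and Myh8 3.85 and 4.35 against 3.63 to 3.91. Myh3 stayed below background on both, and Myh8 was above it on mTERT WT 3 by a small margin. Tnni2 and Tnnt3 lie on chromosome 7 on either side of Lsp1. Myh7 lies on chromosome 14 beside Myh6, the heart heavy chain, which was at 3.41 and 3.59 against 3.23 to 3.69.

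In the comparison the study was built for, no gene passed the test. limma called 0 of 20197 probes (0%) in mTERT KO against mTERT WT at an adjusted p under 0.05, with 283 at an unadjusted p under 0.05, and so none of the 34 members tested. The other 7 members (Myl1, Mybpc2, Tnni1, Tcap, Ldb3, Xirp2 and Smpx) had a mean below the filter on dim probes, a log2 value of 3.898, and were not tested. The KO minus WT difference was below 0 for 41 of 41 members and for 9824 of all 19938 genes. Its median was −0.98 over the members against 0.0019 over all genes. At least 2-fold lower were 20 members, and the share of all genes at that step was not counted. By litter the median over members was −1.37 in set 1, 0.0056 in set 2 and −1.50 in set 3, so the direction came from the litters of mTERT WT 1 and mTERT WT 3.

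The largest difference was that of Acta1: the WT group averaged 7.76 ± 2.76 (SD, n = 3) and the KO group 5.24 ± 1.09 (SD, n = 3), so KO minus WT was −2.52 (SE 1.09). Atp2a1 differed by −2.37 (SE 0.889), Myh1 by −2.29 (SE 0.788) and Ckm by −2.18 (SE 0.746). For none of these genes were the groups apart, since mTERT WT 2 read as low as the KO arrays. The KO arrays lay below all 3 WT arrays for 5 members (Casq1, Ryr1, Eef1a2, Rtn2 and Smpx), where 2.62% of all genes had KO below WT in this way. For Casq1, Ryr1, Rtn2 and Smpx, mTERT WT 2 and the KO arrays were all below background. Their order is thus one of values at the floor, and no separation of the groups is read from it. Eef1a2 was above background on all 12 arrays, at 5.63 on mTERT WT 2 against 5.54 on mTERT KO 3, the highest KO array.

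**Figure D4:**
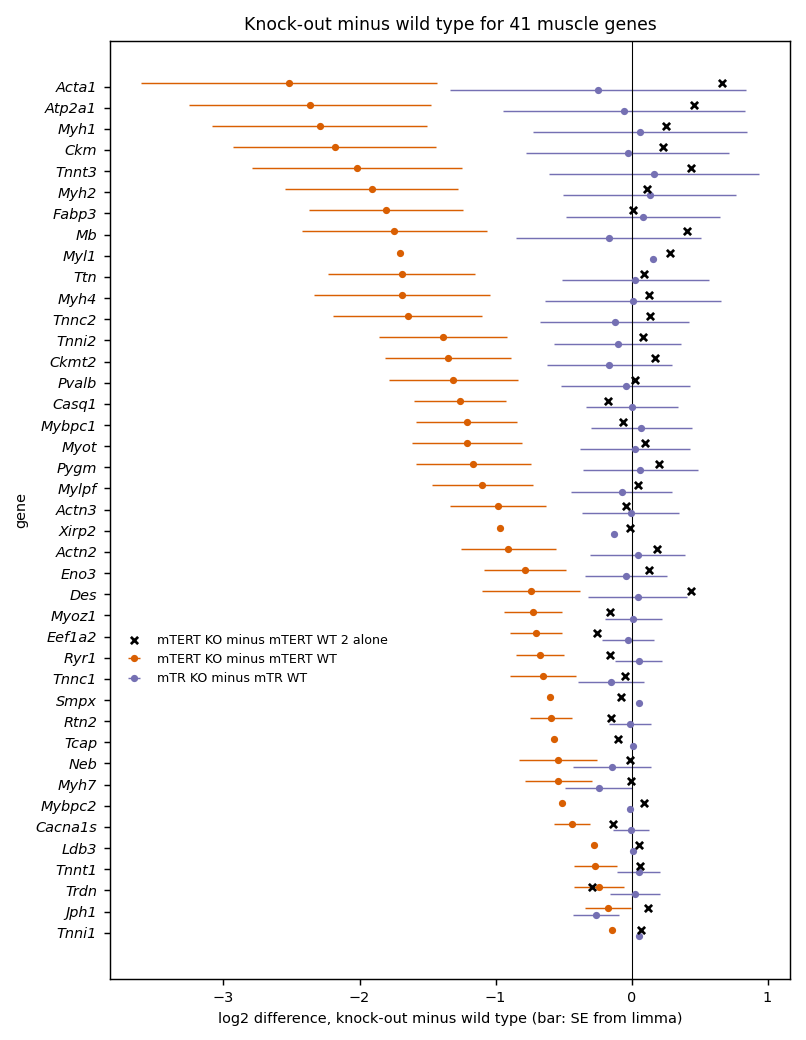
Log2 difference KO minus WT for each of the 41 muscle genes in the mTERT line (orange) and the mTR line (violet), with bars of 1 SE from limma for the 34 genes tested; crosses give the mTERT difference when mTERT WT 2 is the only WT array. Orange points run from −2.52 for Acta1 to −0.14 for Tnni1, while violet points and crosses lie around 0.

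Because mTERT WT 1 and mTERT WT 3 stood apart, the comparison was computed again with arrays left out. Without both, the median over members was 0.067 with 15 of 41 below 0, and limma called 0 probes; mTERT WT 2 then stands alone and is assumed to vary like the other groups. Without mTERT WT 2, limma called 41 probes (0.203% of those tested), 25 of them members and all 25 lower in KO, with Ckm at −3.39 (SE 0.261, adjusted p 0.000207) and Acta1 at −4.11 (SE 0.646, adjusted p 0.0346). That fit keeps as WT only the arrays on which the muscle genes are high. Its calls and p-values follow from that choice of arrays and are no test. Members such as Myh1 and Myh4 (medians over the 12 arrays 3.58 and 3.67) also passed the filter of 3.898 only through those arrays. The set of mice, the litter and the amount of muscle RNA cannot be told apart within a single array, and the part of each in the difference was not tested.

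In the mTR line KO minus WT showed no such pattern. Some members did stand out on 1 array of each mTR group. Acta1 had an excess of 1.20 on mTR KO 3 and 1.28 on mTR WT 1, and Tnnt3 of 0.52 and 0.33. The energy genes had a median excess of 0.14 and 0.15 there, the calcium genes −0.05 and −0.06, and all members 0.013 and 0.015. On mTERT KO 1 the energy genes had 0.29 and the calcium genes 0.0025. An excess of at least 0.5 was read for 2 members on mTR KO 3 (0.256% of all genes), 1 on mTR WT 1 (1.81%) and 6 on mTERT KO 1 (2.67%). Over the 41 members KO minus WT had its median at 0.0062, 20 of them being below 0 and 21 above, and ran from −0.26 (Jph1, SE 0.171) to 0.17 (Tnnt3, SE 0.774). Of all 19938 genes, 10102 were below 0. limma called 0 of 20197 probes (0%), with 195 at an unadjusted p under 0.05. By litter the median over members was −0.14, −0.025 and 0.11. Acta1, with 4.89 ± 0.906 (SD, n = 3) in mTR KO and 5.14 ± 0.746 (SD, n = 3) in mTR WT, differed by −0.25 (SE 1.09), which the fit's 95% interval places between −2.64 and 2.14.

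The difference of the KO effects, mTERT minus mTR, had a median of −0.97 over the members, and limma called 0 of 20197 probes (0%), with 293 at an unadjusted p under 0.05. For mTR WT minus mTERT WT the member median was −0.99, with all 41 members and 9657 of all 19938 genes below 0. Again 0 of 20197 probes (0%) were called, with 525 at an unadjusted p under 0.05. Both of these share the mTERT WT arrays with the comparison above and are not independent of it. Without mTERT WT 2 limma called 30 probes (0.149%), 19 of them members, for the difference of the effects and 42 (0.208%), 25 of them members, between the WT groups. These fits, too, keep only the mTERT WT arrays on which the muscle genes are high, so their calls are no test.

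Other muscle genes, from a list of 50 of which 47 were on the array, stood out less. The members were proposed with the pattern known, so this contrast is no test. The list also holds genes well above background on all arrays, such as Atp2a2 (9.80 to 10.39 on the other 10). 8 had an excess of at least 1 on mTERT WT 1 (0.757% of all genes) and 8 on mTERT WT 3 (0.547%). None did on the other 10 arrays (0.18% of the readings of all genes), and the median excess was 0.27 and 0.34. Those with the widest span were the tropomyosins Tpm2 (5.91 and 6.50 against 4.09 to 4.52) and Tpm1 (7.51 and 7.56 against 5.81 to 6.31), the mitochondrial subunit Cox8b (6.05 and 4.59 against 3.68 to 4.01) and the glycolytic enzyme Pgam2 (5.47 and 5.08 against 3.48 to 3.98). Of the 26 of these genes tested in mTERT KO against mTERT WT, limma called 0, and the median difference over the 47 was −0.26, with 45 below 0. Of all 19938 genes, 9824 were below 0 in this comparison.

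None of the regulators of muscle development or genes of the nerve-muscle contact that were listed had an excess of 1 or more on mTERT WT 1 or mTERT WT 3. The 6 myogenic regulators measured had a median excess of −0.03 and 0.07 on these arrays. Mef2c, a transcription factor of muscle and other tissues, had the widest span of them and read 5.18 on mTERT WT 3 and 4.75 on mTERT WT 1 against 4.17 to 4.76 on the other 10 arrays. Myf6, a regulator found in mature fibres, read 4.05 on mTERT WT 3 and 3.58 on mTERT WT 1 against 3.56 to 3.89. Both were thus above the other 10 arrays on mTERT WT 3 and not on mTERT WT 1. Myog was at 3.90 on mTERT WT 1 and 4.18 on mTERT WT 3, within its range of 3.74 to 4.38 on the rest, and Myf5 was above the rest on mTERT WT 1, at 3.88 and 3.69 against 3.41 to 3.76. The 6 genes of the neuromuscular contact, such as the acetylcholine receptor subunit Chrna1, had 0.01 and 0.02, and none was above background on any array.

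Genes of other tissues were read on the same arrays. The 11 heart genes had a median excess of −0.09 and 0.03, with only Actc1, cardiac actin, at 1 or more, at 5.44 on mTERT WT 3 and 4.79 on mTERT WT 1 against 4.05 to 4.55; this gene is also known from developing and regenerating skeletal muscle. The 8 smooth muscle genes had 0.08 and −0.01, the 8 tendon and cartilage genes −0.02 and 0.02, the 5 skin genes −0.03 and −0.06, the 8 stomach and intestine genes −0.00 and −0.05 and the 3 nerve genes −0.10 and 0.00. The 7 fat cell genes had 0.15 and −0.00, and Plin4, a lipid droplet protein, had the widest span. Plin4 read 5.55 on mTERT WT 1 and 4.25 on mTERT WT 3, and it was also high on mTERT KO 1 (5.71), mTR KO 1 (5.31) and mTR WT 1 (5.26), with 4.23 to 4.79 on the remaining arrays. Its high arrays are those of set 1 in both lines, so its level followed the set. Adipoq, the fat cell hormone adiponectin, was at 4.08 on mTERT WT 1 against 3.41 to 3.69 on the arrays other than mTERT WT 1 and mTERT WT 3, below background throughout. The 6 mesothelium genes, which mark the lining of the abdominal cavity, had −0.01 and 0.21, with Krt19, also a bile duct gene, at 5.69 on mTERT WT 3 and 3.96 to 5.36 on the other arrays outside this pair. Upk1b of the same list was at 4.64 on mTERT WT 3 and 3.96 on mTERT WT 1 against 3.64 to 4.16.

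Pancreas acinar genes, which encode digestive enzymes, followed another set of arrays. Their median excess was 5.82 on mTERT KO 1, 2.85 on mTERT WT 1, 4.71 on mTERT WT 2, 7.34 on mTR KO 1 and 2.54 on mTR WT 2, and it was −0.12 on mTERT WT 3. Cpa1, a carboxypeptidase, read 8.80 on mTERT WT 1, 10.59 on mTERT WT 2 and 3.75 on mTERT WT 3. So mTERT WT 1 was high for both muscle and pancreas genes, mTERT WT 3 for muscle genes and mTERT WT 2 for pancreas genes. The part of these cells in any difference between the groups was not tested.

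**Figure D5:**
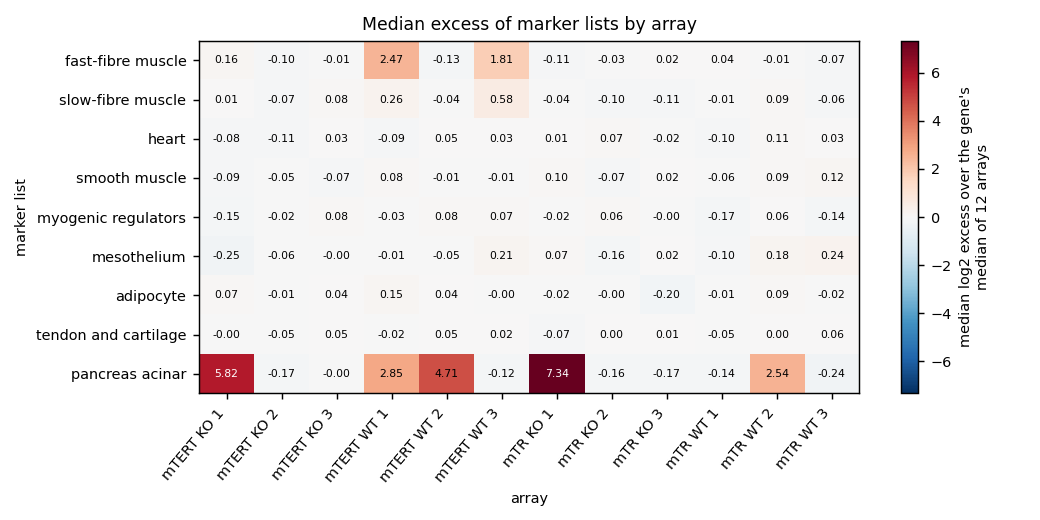
Median excess of 9 marker lists (rows) on each of the 12 arrays (columns), in log2 units over each gene's median of 12 arrays, with the value printed in each cell. Fast-fibre muscle genes are high on mTERT WT 1 (2.47) and mTERT WT 3 (1.81), and pancreas genes on 5 arrays of which only mTERT WT 1 is shared.

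The genes most like the members across arrays were found among the 14043 genes outside all lists whose probe had a mean over the 12 arrays at or above the filter on dim probes, by the Pearson correlation over the 12 arrays with the mean of the 41 members. The arrays mTERT WT 1 and mTERT WT 3 carry most of this correlation, so it is given as a description. Slc25a4, the ADP/ATP carrier of heart and muscle mitochondria, was the most alike (r = 0.972), at 7.22 and 7.40 against 4.93 to 5.57 elsewhere. Ak1, adenylate kinase (r = 0.970), was at 5.19 and 4.86 against 3.65 to 4.07, and Ankrd23, an ankyrin repeat protein of the sarcomere (r = 0.969), at 5.69 and 5.58 against 3.90 to 4.47. Cmya5, myospryn (r = 0.951), and the small heat shock protein Cryab (r = 0.911) followed the same arrays. Among the 10 most alike were also 2 genes well expressed in liver: Hpx, hemopexin, a heme carrier of plasma (r = 0.920), at 12.97 and 12.91 against 12.48 to 12.69, and Stat3, a transcription factor of the acute phase response (r = 0.863), at 9.26 and 8.90 against 8.25 to 8.63. The others were Snx10, Art3 and Oxct1, with r between 0.857 and 0.913.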

How the data were processed

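The authors deposited log2 intensities per probe set for 12 one-colour Affymetrix arrays. PLIER, Affymetrix Expression Console and GCOS 1.4 are the tools in the submitters' processing notes, with no role or order. The log base was read as 2 from the range of 2.62 to 13.83, and normalization and any added constant are not given in the sources used here. Of 28853 probes, 21789 had 1 gene symbol in the platform annotation and 21698 of these matched RefSeq; 1621 with several were not named. The members and gene lists were chosen with earlier results of these data known, and the genes named follow the lists, the widest spans within each list and the correlation rule stated in the text.

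limma 3.58.1 (R 4.3.3) fitted 4 group means over 12 arrays, with eBayes, to the probes whose mean reached the 30th percentile. Tests were two-sided, adjusted by Benjamini-Hochberg over 20197 probes, with a threshold of 0.05. The series text makes each numbered set littermates, and same-numbered arrays deviated together (correlations 0.692, 0.135 and 0.623 for mTERT, 0.458, 0.151 and 0.552 for mTR), so a litter block was fitted as an alternative. The fit was tested on simulated data with independent noise, no litter effect and no spread wider than that of the median probe. That test therefore does not cover genes with a spread as wide as that of the muscle genes.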

Additional observations from a re-analysis of the deposited data

Results flagged for a closer look

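Ryr1, the calcium release channel, was picked out by the signs of its litter differences. KO minus WT by litter was −0.89, −0.23 and −0.90 in the mTERT line and 0.066, 0.0041 and 0.087 in the mTR line, below 0 in each mTERT litter and above 0 in each mTR litter. The difference of the KO effects was −0.73 (SE 0.246), which did not pass the test (adjusted p 1 by limma over 20197 probes, unadjusted 0.0127). Outside mTERT WT 1 and mTERT WT 3 the probe was below background, on all 6 mTR arrays included, so the signs in the mTR line are those of values at the floor and no difference in direction between the lines is read from them.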

How the results depend on the processing

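Across 23 settings, the KO minus WT difference in the mTERT line kept its sign for 41 of 41 members in all but 1, the fit without both mTERT WT 1 and mTERT WT 3. Settings that changed only the filter, the estimate of the spread, the block or the mTR arrays could not change this difference. Their agreement was fixed in advance and adds no support. In the fit without both arrays the median over members was 0.067, against 0.109 for the difference of the KO effects and 0.038 for mTR WT minus mTERT WT. In that fit 15 members and 10522 of all 19938 genes were below 0 in the mTERT line, and 26 members were above 0. The thick filament genes among them were Myh1 (0.26), Myh2 (0.11), Myh4 (0.13), Mylpf (0.045), Myl1 (0.28) and Mybpc2 (0.094). The thin filament genes were Acta1 (0.67), Tnnc2 (0.14), Tnni1 (0.067), Tnni2 (0.085), Tnnt1 (0.060) and Tnnt3 (0.44), and the Z-disc group held Ttn (0.089), Actn2 (0.18), Myot (0.098), Ldb3 (0.053) and Des (0.44). The calcium genes were Atp2a1 (0.46), Jph1 (0.12) and Pvalb (0.027), and the energy genes Ckm (0.23), Ckmt2 (0.17), Pygm (0.20), Eno3 (0.13), Mb (0.41) and Fabp3 (0.013). These values rest on 1 WT array.

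Leaving out 1 array at a time, the member median ranged from −1.45 to −0.68 for mTERT, from −0.030 to 0.061 for mTR, from −1.50 to −0.64 for the difference of the effects and from −1.51 to −0.71 between the WT groups. limma then called 0 to 41, 0 to 0, 0 to 30 and 0 to 42 probes, of which 0 to 25, 0 to 0, 0 to 19 and 0 to 25 were members. The highest counts came without mTERT WT 2, where only the high mTERT WT arrays remain, and 1 probe was called without mTERT WT 1. Without the arrays of set 1, limma called 1 probe for mTERT and 1 for mTR, neither a member. With the litter as a replicate block limma called 0 probes in both lines and for the difference of the effects, with 1037 at an unadjusted p under 0.05 in the mTERT line, and the block changed no call. The litter block could not be fitted between the WT groups, where the set number served as the block and limma called 0.

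A step of 2 log2 units in place of 1 left 17 members on mTERT WT 1 (0.296% of all genes), 13 on mTERT WT 3 (0.115%) and 0 on the other 10 arrays together. On each of those 10 arrays 0% to 0.221% of all genes reached that step. A step of 0.5 gave 9 on those 10 arrays, against 4, where 0.231% (mTR WT 3) to 2.67% (mTERT KO 1) of all genes reached it on an array. With background at the 99th percentile of olfactory genes, 47 readings on those arrays were above it, against 99. The share of all genes at that percentile was not counted. What limits these results is the number of arrays and the background floor, below which a lower level cannot be read.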
